A study of Mus musculus with 6 samples.

Results

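The genes described here encode the machinery that copies DNA: 42 genes for origin licensing, the replicative helicase, the DNA polymerases, the sliding clamp and its loader, and the supply of deoxynucleotides. They were taken by symbol from a list drawn up with earlier results of these data known. All 42 were found among the 55416 genes of the count tables. RNA was sequenced from CD3+ cells of the spleen of C57BL/6 graft recipients labelled wild type (WT), in 3 libraries from mice with an isograft (donor genetically identical to the recipient) and 3 from mice with an allograft (donor genetically different). Per the labels' protocols, the cells of both groups were kept in medium with serum before lysis. The sources used here do not give the grafted organ, donor strain, age, time after grafting or time in culture. They also do not say that each library is a separate mouse, so a p-value reflects library-to-library spread only, some of which may be technical.

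A cell copies its genome in steps, each with its own proteins. In G1 the origin recognition complex, with CDC6 and CDT1, loads the ring-shaped MCM helicase onto DNA, which is called licensing, and geminin blocks CDT1 once S phase has begun. CDC45 and the GINS complex then turn the ring into an active helicase, the polymerases extend primers behind it while held by the clamp PCNA, and ribonucleotide reductase and thymidine kinase supply the building blocks. Resting T cells keep many of these genes low, and they are induced when an activated lymphocyte enters the cell cycle, in large part through the E2F transcription factors.

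Library totals ran from 30066137 to 37821738 counts. The label was checked against marker genes: the 14 T cell markers summed to 1977 to 2082 CPM in isograft and 1591 to 1788 CPM in allograft libraries, and the 10 B cell markers to 1352 to 1457 and 1629 to 1780 CPM. CPM is a gene's count scaled to its library's size, here after the trimmed mean of M values (TMM). The higher B cell sum in allograft libraries came from Fcer2a, at 52.0 to 53.9 and 352 to 392 CPM. Without it the other 9 summed to 1299 to 1403 and 1277 to 1390 CPM, ranges that overlap. The B cell gene Ms4a1 stood at 119.7 to 145 CPM over the 6 libraries, so B cell transcripts were present in every library, and which cells carried the replication transcripts was not tested. Of the T cell markers 5 rose and 8 fell, and of the B cell markers 4 rose and 4 fell. Over all genes tested 28.7% rose and 29.1% fell. In bulk RNA, fewer cells of a type and less RNA per cell cannot be told apart, and the part of these markers in the results below was not tested.

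The replication genes were called in both directions, at about the rate of all genes. All 42 passed the low-count filter, 10 rose, 13 fell and 19 did not pass the threshold (edgeR's quasi-likelihood test, Benjamini-Hochberg adjusted p under 0.05). Of all 14926 genes tested 28.7% rose and 29.1% fell, against 23.8% and 31.0% of the replication genes, so their share of calls (54.8%) was near the background of 57.8%. At least 2-fold changes were seen for 2 of the 42, Tk1 and Pold2, against 20.1% of all genes. Their median size of the log2 fold change (allograft minus isograft) was 0.35 against 0.50 over all genes. The lowest mean level was 1.1 CPM among the 42 and 0.19 CPM among all genes tested, and no set matched for level was compared. The 2-fold count depends on the cut. Rpa1, Pold1 and Gmnn fell just short of it (-0.99, -0.98 and -0.97) and passed it with total counts (-1.21, -1.20 and -1.19). The median signed log2 fold change was -0.12, and -0.01 over all genes. For 26 of the 42 genes (61.9%) the isograft and allograft libraries had no overlap in level, as for 63.3% of all genes.

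Summed over the 42 genes, the level was 1596, 1628 and 1684 CPM in the isograft libraries and 1618, 1612 and 1617 CPM in the allograft libraries. The ranges overlap, and the allograft mean was 0.988 of the isograft mean. Scaling matters here: when libraries were scaled by their total counts alone, the median log2 fold change of all genes shifted by -0.22, the summed level became 0.847 of the isograft mean, and 4 members rose while 22 fell, against 19.9% and 40.8% of all genes. The 4 rises that held under both scalings were Tk1, Pold2, Pcna and Mcm5. In the MCM ring, polymerase delta and replication factor C, subunit genes of the same complex passed the threshold in opposite directions. Over all genes 28.7% rose and 29.1% fell, and whether such mixed calls exceed that background was not tested.

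**Figure D1:**
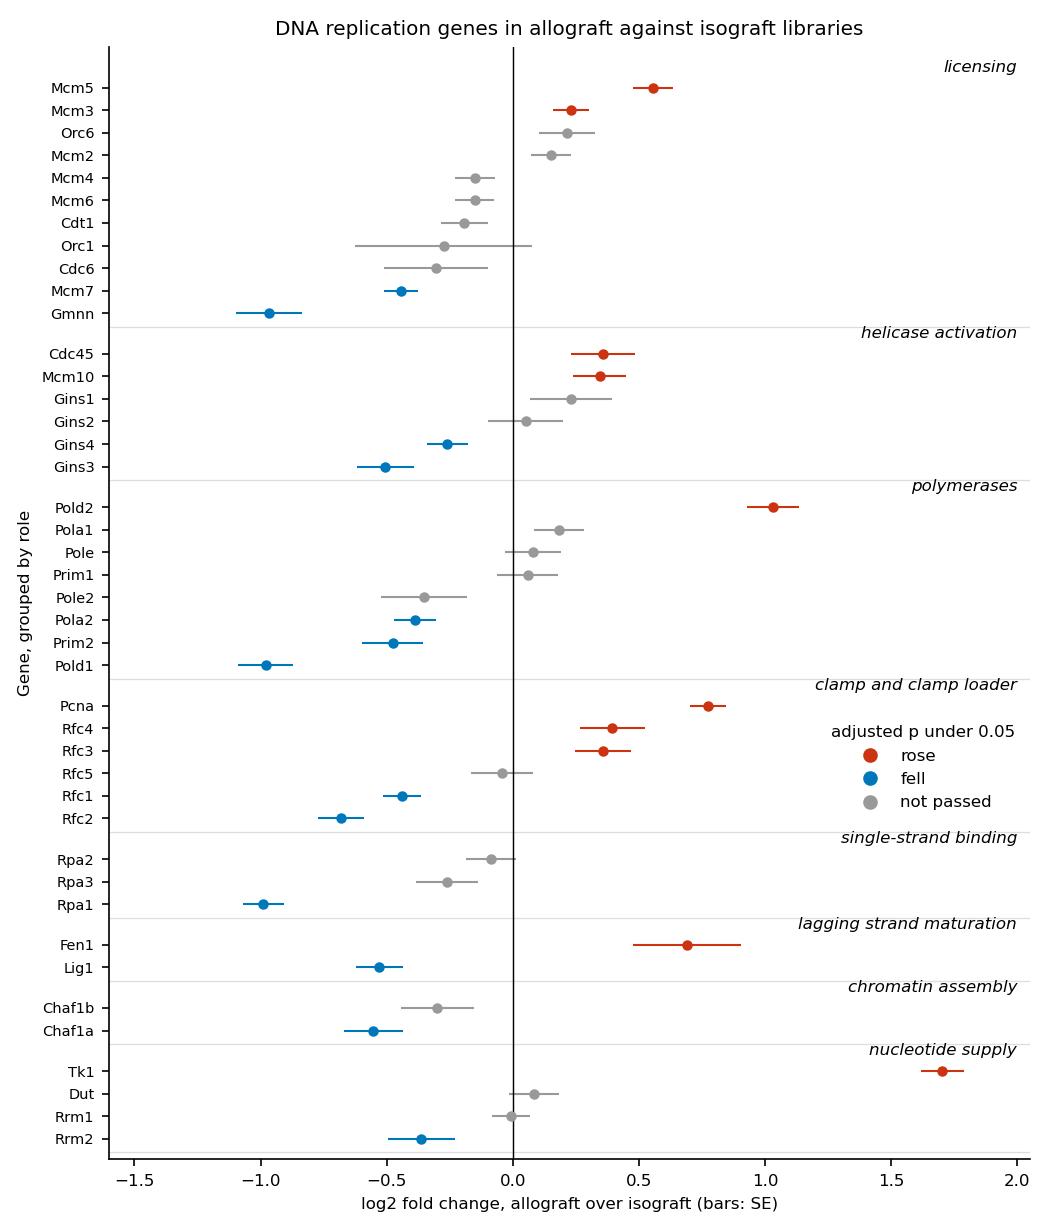
Log2 fold change of each of the 42 genes, allograft over isograft, with its SE as a bar, grouped by role on the vertical axis and coloured by call. Every role group except single-strand binding and chromatin assembly holds at least 1 gene that rose and 1 that fell, and Tk1 stands furthest out at 1.70.

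Licensing genes overlapped between the groups in summed level, at 676 ± 23.6 CPM in isograft and 685 ± 12.7 CPM in allograft libraries (SD, n = 3). Of the 11 genes 2 rose and 2 fell (18.2% each), beside 28.7% and 29.1% of all genes. Mcm5, a subunit of the helicase ring (chromosome 8, 75836197 to 75855067, GRCm39), was at 79.0, 94.2 and 84.6 CPM in isograft replicates 1 to 3 and 129, 132 and 118 CPM in allograft replicates 1 to 3. Every allograft library was above every isograft library, and the log2 fold change was 0.55 ± 0.08 (SE, edgeR adjusted p = 5.5e-06). Mcm7, another subunit of the same ring (chromosome 5, 138162845 to 138170684), went the other way, from 139.7, 135 and 140.5 CPM to 101, 99.6 and 104.4 CPM. Here all 3 allograft libraries were the low ones (-0.44 ± 0.07, edgeR adjusted p = 1.3e-05). Exons of other genes, among them the microRNA genes Mir25 and Mir93 that lie within Mcm7, cover 12.6% of its exon bases.

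The counts of Mcm5 relative to Mcm7, a ratio that no scaling of a library can move, were 0.566, 0.699 and 0.602 in isograft and 1.28, 1.32 and 1.13 in allograft libraries. This pair and the others whose ratios are given were picked after their values were seen, so the ratios are descriptions. Mcm3 rose a little (0.23 ± 0.07, edgeR adjusted p = 0.0091), but not with total counts (0.01, adjusted p = 0.91) or once isograft replicate 1 was left out (0.19, adjusted p = 0.052). The remaining ring subunits Mcm2 (0.15 ± 0.08), Mcm4 (-0.15 ± 0.08) and Mcm6 (-0.15 ± 0.08) did not pass. Per kilobase of exon, the 6 subunits' levels spanned 3.25-fold to 3.76-fold within an isograft library and 3.46-fold to 3.90-fold within an allograft library. Mcm2 was the lowest (10.8 ± 0.730 and 12.01 ± 0.829 CPM per kb) and Mcm3 the highest (38.1 ± 2.69 and 44.7 ± 0.247 CPM per kb). The divisor is the length of all annotated exons of a gene, which can exceed that of a transcript. Ranks per kilobase, here and below, depend on it. In mean CPM, Mcm4 was the lowest of the 6 (60.2 in isograft and 54.3 in allograft libraries), below Mcm2 (75.2 and 83.5).

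Geminin, the inhibitor of licensing, fell most in this role. Gmnn (chromosome 13, 24935828 to 24945906) was at 18.2, 18.8 and 22.3 CPM in isograft and 8.65, 9.62 and 12.1 CPM in allograft libraries. The groups did not overlap, and the log2 fold change was -0.97 ± 0.13 (edgeR adjusted p = 2.8e-06). Its target Cdt1, the MCM loading factor, differed by -0.19 ± 0.09 and did not pass (edgeR adjusted p = 0.085). The counts of Cdt1 relative to Gmnn were 1.91, 1.88 and 1.87 in isograft and 4.01, 3.17 and 2.71 in allograft libraries, so every allograft ratio was the higher. Orc1 and Cdc6, the origin-bound ATPases that start loading, were low in both groups, at 1.21 ± 0.112 and 4.36 ± 1.09 CPM in isograft libraries, and neither passed (-0.27 ± 0.35 and -0.30 ± 0.21). Exons of Gm12743 cover 10.8% of those of Orc1. Orc6, a smaller subunit of the origin complex, differed by 0.22 ± 0.11 (edgeR adjusted p = 0.11).

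Of the 6 helicase activation genes 2 rose and 2 fell (33.3% each), beside 28.7% and 29.1% of all genes. Cdc45, the helicase cofactor, was at 8.44, 9.25 and 7.61 CPM in isograft and 10.3, 11.3 and 10.8 CPM in allograft libraries. The allograft libraries were all higher (0.36 ± 0.13, edgeR adjusted p = 0.022), but the call was lost in 5 alternatives, among them total counts (0.14, adjusted p = 0.39) and the removal of isograft replicate 1 (0.35, adjusted p = 0.052), isograft replicate 3 (0.29, adjusted p = 0.097) or allograft replicate 2 (0.32, adjusted p = 0.080). Mcm10, a scaffold needed to fire origins, rose by 0.34 ± 0.11 (edgeR adjusted p = 0.0091), but not with total counts (0.12, adjusted p = 0.35) or once isograft replicate 2 was left out (0.30, adjusted p = 0.0515).

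The GINS subunits, which bind CDC45 on the MCM ring, gave 2 falls among 4 genes (50%, beside 29.1% of all genes). Gins3 was at 19.1, 20.2 and 16.2 CPM in isograft and 13.5, 12.5 and 13.2 CPM in allograft libraries. It was lower in all 3 allograft libraries (-0.51 ± 0.11, edgeR adjusted p = 6.9e-04). Gins4 also fell (-0.26 ± 0.08, edgeR adjusted p = 0.0092), while Gins1 (0.23 ± 0.16) and Gins2 (0.05 ± 0.15) did not pass. Gins4 had the highest level per exon length of these genes, 37.9 ± 1.43 CPM per kb in isograft libraries against 6.83 ± 0.772 for Gins3. Exons of Gse1 cover 67.3% of the exon bases of Gins2, so its level is uncertain.

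Among the 8 polymerase genes 1 rose and 3 fell (12.5% and 37.5%, beside 28.7% and 29.1% of all genes). The widest divergence lay within DNA polymerase delta, which extends the lagging strand. Its accessory subunit gene Pold2 (chromosome 11, 5822180 to 5828292) was at 11.5, 10.9 and 10.6 CPM in isograft and 23.5, 22.1 and 21.9 CPM in allograft libraries. Every allograft library was above every isograft library (2.04-fold for the means, log2 fold change 1.03 ± 0.10, edgeR adjusted p = 5.0e-08). Pold1, the catalytic subunit gene (chromosome 7, 44182170 to 44198273), was at 38.9, 42.1 and 40.2 CPM in isograft and 22.7, 22.2 and 16.5 CPM in allograft libraries. It fell to 0.507 of the isograft mean (-0.98 ± 0.11, edgeR adjusted p = 2.3e-07), with allograft replicate 3 the lowest. Per kilobase of exon, the order of the pair turned over: Pold1 stood above Pold2 in isograft libraries (8.31 ± 0.330 against 5.81 ± 0.240 CPM per kb) and below it in allograft libraries (4.21 ± 0.705 against 11.9 ± 0.460). Counts of Pold2 relative to Pold1 were 0.296, 0.259 and 0.265 in isograft and 1.03, 0.998 and 1.32 in allograft libraries.

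The polymerase alpha and primase complex lays down the primers. Its accessory genes Pola2 (-0.39 ± 0.08, edgeR adjusted p = 5.7e-04) and Prim2, the large primase subunit (-0.48 ± 0.12, edgeR adjusted p = 0.0022), fell. The catalytic genes Pola1 (0.18 ± 0.10) and Prim1 (0.06 ± 0.12) did not pass. For the leading strand polymerase epsilon, neither Pole, the catalytic subunit (0.08 ± 0.11), nor Pole2 (-0.35 ± 0.17, edgeR adjusted p = 0.088) passed. The 8 genes of the polymerase group summed to 168, 168.8 and 172 CPM in isograft and 149.6, 152 and 149 CPM in allograft libraries, with no overlap between groups.

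**Figure D2:**
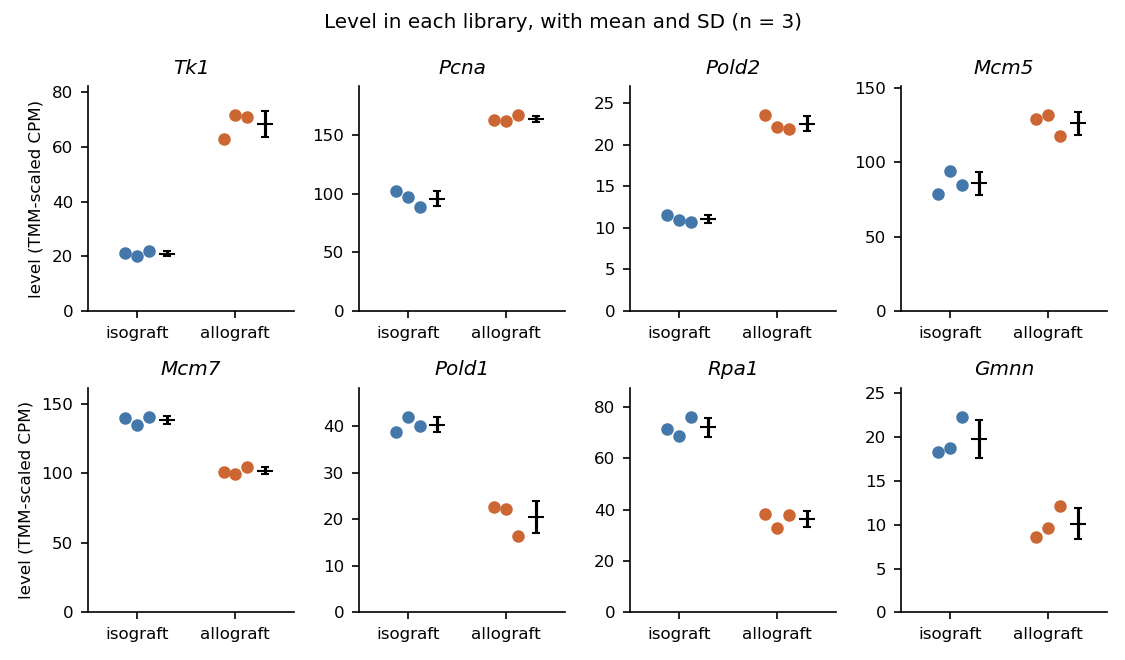
Level in each library (TMM-scaled CPM, vertical axis) of 4 genes that rose (Tk1, Pcna, Pold2, Mcm5) and 4 that fell (Mcm7, Pold1, Rpa1, Gmnn), isograft and allograft side by side. Points are libraries, the bar beside them the mean and SD (n = 3), and in every panel the groups do not overlap.

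The promoters of a pair from the MCM ring and a pair from polymerase delta, each moving in opposite directions, are shown so that their motifs can be set beside their values. Replication factor C also had calls in both directions, but its promoters are not shown. Mcm7 and Pold2 have 2 windows each, and the one at the gene's outer end is shown. The sequences are RefSeq's (GRCm38.p6), the 250 bases before the annotated start, 5′ to 3′ on the gene's strand. Capitals mark E2F words and CCAAT boxes.
Mcm5, rose (GRCm38.p6, chr8:75109259-75109508, plus strand): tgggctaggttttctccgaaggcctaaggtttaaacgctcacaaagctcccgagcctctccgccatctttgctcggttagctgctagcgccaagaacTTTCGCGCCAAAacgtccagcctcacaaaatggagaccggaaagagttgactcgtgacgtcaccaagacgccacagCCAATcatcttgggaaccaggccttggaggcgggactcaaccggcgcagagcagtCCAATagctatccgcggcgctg
Mcm7, fell (GRCm38.p6, chr5:138171884-138172133, minus strand): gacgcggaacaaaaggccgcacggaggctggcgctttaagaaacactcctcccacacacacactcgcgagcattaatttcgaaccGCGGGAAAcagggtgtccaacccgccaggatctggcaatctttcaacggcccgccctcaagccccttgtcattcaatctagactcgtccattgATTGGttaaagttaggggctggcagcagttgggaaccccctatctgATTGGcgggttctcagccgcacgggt
Pold2, rose (GRCm38.p6, chr11:5878257-5878506, minus strand): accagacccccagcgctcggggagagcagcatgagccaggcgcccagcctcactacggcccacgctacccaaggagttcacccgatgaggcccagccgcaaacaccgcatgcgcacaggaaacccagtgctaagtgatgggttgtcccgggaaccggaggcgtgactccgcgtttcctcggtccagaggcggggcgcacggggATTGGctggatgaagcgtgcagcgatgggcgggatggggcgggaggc
Pold1, fell (GRCm38.p6, chr7:44548816-44549065, minus strand): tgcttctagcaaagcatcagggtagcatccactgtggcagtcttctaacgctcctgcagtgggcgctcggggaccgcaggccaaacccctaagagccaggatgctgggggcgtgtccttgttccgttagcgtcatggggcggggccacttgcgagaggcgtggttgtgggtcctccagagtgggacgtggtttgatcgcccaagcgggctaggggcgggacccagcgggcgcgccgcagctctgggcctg

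The E2F words searched were TTTCCCGC, TTTCGCGC, TTTGCCGC and TTTGGCGC, and the CCAAT box was CCAAT, each on both strands. In Mcm5 a pair of overlapping E2F words on opposite strands begins 153 and 149 bases before the start, and in Mcm7 an E2F word begins 165 bases before it. Both promoters carry 2 CCAAT boxes in the bases shown, at 77 and 22 bases before the start of Mcm5 and at 72 and 26 before that of Mcm7. Pold2 shows a CCAAT box and no E2F word, and Pold1 neither in the bases shown. The pair from the helicase ring has both motifs in the bases shown, at similar distances. The part of either motif in their changes was not tested.

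RefSeq windows of 300 bases, 250 before the start and 50 after, matched 34 of the 42 genes, with 39 windows. An E2F word was in 13 of the 39 windows (33.3%), against 2.26% of all 32851 windows and 2.85% of the windows of protein-coding genes. By call, 3 of 10 genes that rose and were matched held an E2F word (Mcm3, Mcm5, Rfc3), 4 of 9 that fell (Gins3, Lig1, Mcm7, Pold1) and 6 of 15 that did not pass. The CCAAT box was in 59.0% of the members' windows and 37.4% of all windows, and in 7 of the 10 genes that rose, 6 of the 9 that fell and 9 of the 15 that did not pass. A match is a description of letters, not of a bound site.

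Of the 6 clamp and clamp loader genes 3 rose and 2 fell, beside 28.7% and 29.1% of all genes. Pcna, the sliding clamp (chromosome 2, 132091082 to 132095234), was at 102, 97.0 and 88.8 CPM in isograft and 163, 162 and 167 CPM in allograft libraries. All 3 allograft libraries were higher, 1.71-fold for the means (0.77 ± 0.07, edgeR adjusted p = 1.9e-08). Per exon length it stood at 39.99 ± 2.79 and 68.4 ± 1.07 CPM per kb, the highest of the 42 genes in every allograft library. In isograft libraries it lay close to Mcm3 and Gins4 (38.1 ± 2.69 and 37.9 ± 1.43 CPM per kb), and below both in isograft replicate 3. The annotation names 2 pseudogenes, Pcna-ps1 and Pcna-ps2, and the counting default skips multi-mapped reads, so Pcna may be undercounted in every library.

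Replication factor C is the loader that opens the clamp. Of its 5 subunit genes 2 rose and 2 fell (40% each, beside 28.7% and 29.1% of all genes). Rfc2, a small subunit (chromosome 5, 134610220 to 134630659), was at 40.9, 40.7 and 44.4 CPM in isograft and 23.3, 28.5 and 26.9 CPM in allograft libraries. It was lower in every allograft library (-0.68 ± 0.09, edgeR adjusted p = 3.1e-06). The large subunit gene Rfc1 fell too (-0.44 ± 0.08, edgeR adjusted p = 4.7e-05). The small subunit genes Rfc3 (0.36 ± 0.11, edgeR adjusted p = 0.010) and Rfc4 (0.39 ± 0.13, edgeR adjusted p = 0.014) rose. Both rises were lost with total counts (0.14 and 0.17) and without isograft replicate 2 (0.30, adjusted p = 0.062, and 0.31, adjusted p = 0.082). Rfc3 also missed the threshold without allograft replicate 3 (0.28, adjusted p = 0.054), and Rfc4 without allograft replicate 2 (0.36, adjusted p = 0.058). Rfc5 did not pass (-0.04 ± 0.12). Exons of Lat2 cover 15.1% of those of Rfc2, and exons of Eif4a2 12.7% of those of Rfc4. The counts of Rfc4 relative to Rfc2 were 0.237, 0.186 and 0.188 in isograft and 0.474, 0.414 and 0.405 in allograft libraries.

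Replication protein A coats single-stranded DNA at the fork and at sites of repair. Rpa1, its large DNA-binding subunit (chromosome 11, 75188992 to 75239150), was at 71.3, 68.9 and 76.2 CPM in isograft and 38.4, 32.7 and 37.9 CPM in allograft libraries. No allograft library reached the isograft range, and the mean fell to 0.504 of the isograft mean (-0.99 ± 0.08, edgeR adjusted p = 4.1e-09), a fall within 1 SE of those of Pold1 and Gmnn. Rpa2, the middle subunit, was at 20.5, 20.3 and 19.5 CPM in isograft and 17.8, 19.3 and 19.8 CPM in allograft libraries. These ranges overlap (-0.09 ± 0.10, edgeR adjusted p = 0.47), and Rpa3, the small subunit, did not pass either (-0.26 ± 0.12, edgeR adjusted p = 0.076). Counts of Rpa2 relative to Rpa1 were 0.288, 0.295 and 0.256 in isograft and 0.464, 0.590 and 0.521 in allograft libraries.

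The genes that finish the lagging strand went in opposite directions. Lig1, the ligase that joins Okazaki fragments (chromosome 7, 13011239 to 13045350), was at 103.7, 128 and 133 CPM in isograft and 92.0, 83.9 and 76.8 CPM in allograft libraries. All allograft libraries were below the isograft ones (-0.53 ± 0.09, edgeR adjusted p = 9.5e-05). Fen1, the nuclease that trims the flaps, was at 2.48, 2.02 and 1.87 CPM in isograft and 3.40, 3.52 and 3.38 CPM in allograft libraries. It rose (0.69 ± 0.21, edgeR adjusted p = 0.0093, lost with total counts at 0.47, adjusted p = 0.071), and its level is uncertain, since exons of Tmem258 and Gm10143 cover 84.2% of its exon bases where fragments are left out by the counting default.

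Chromatin assembly factor places histones on new DNA. Its large subunit gene Chaf1a was at 25.8, 34.4 and 37.5 CPM in isograft and 23.3, 22.3 and 21.1 CPM in allograft libraries. It fell by 0.55 on the log2 scale (edgeR adjusted p = 5.6e-04), with isograft replicate 1 nearest to the allograft libraries, and exons of Ubxn6 cover 52.5% of its exon bases. Chaf1b was at 8.77, 8.26 and 7.11 CPM in isograft and 6.02, 6.52 and 7.11 CPM in allograft libraries. Allograft replicate 3 equalled the lowest isograft library to the digits shown, and the difference did not pass (-0.30 ± 0.14, edgeR adjusted p = 0.084).

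Nucleotide supply held the gene that changed most. Tk1, the cytosolic thymidine kinase that salvages thymidine for S phase (chromosome 11, 117706352 to 117716918), was at 21.0, 20.2 and 21.8 CPM in isograft and 62.8, 71.5 and 70.8 CPM in allograft libraries. The allograft mean was 3.26 times the isograft mean (1.70 ± 0.08, edgeR adjusted p = 2.0e-12), and every allograft library was above the isograft spread. It kept its call in all 11 alternatives, at 1.48 to 1.75.

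Of the other 3 supply genes 0 rose and 1 fell, beside 28.7% and 29.1% of all genes. Rrm1, the large subunit of ribonucleotide reductase, was at 112, 107 and 115 CPM in isograft and 101, 112 and 119 CPM in allograft libraries. The ranges overlap (-0.01 ± 0.08, edgeR adjusted p = 0.94). Rrm2, the small subunit made in S phase, was at 9.52, 11.5 and 12.6 CPM in isograft and 8.81, 9.28 and 8.03 CPM in allograft libraries. It fell by 0.36 on the log2 scale (edgeR adjusted p = 0.026), but missed the threshold when isograft replicate 2 was left out (-0.34, adjusted p = 0.077), or isograft replicate 3 (-0.28, adjusted p = 0.13) or allograft replicate 3 (-0.32, adjusted p = 0.071), and with the replicate number as a block (-0.35, adjusted p = 0.0504). Dut, the enzyme that clears dUTP, was at 20.3, 19.3 and 19.6 CPM in isograft and 21.7, 19.6 and 21.4 CPM in allograft libraries, and did not pass (0.08 ± 0.10). The counts of Tk1 relative to Rrm1 were 0.187, 0.188 and 0.190 in isograft and 0.620, 0.637 and 0.594 in allograft libraries, and relative to Rrm2 2.21, 1.75 and 1.74 and 7.12, 7.71 and 8.81.

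**Figure D3:**
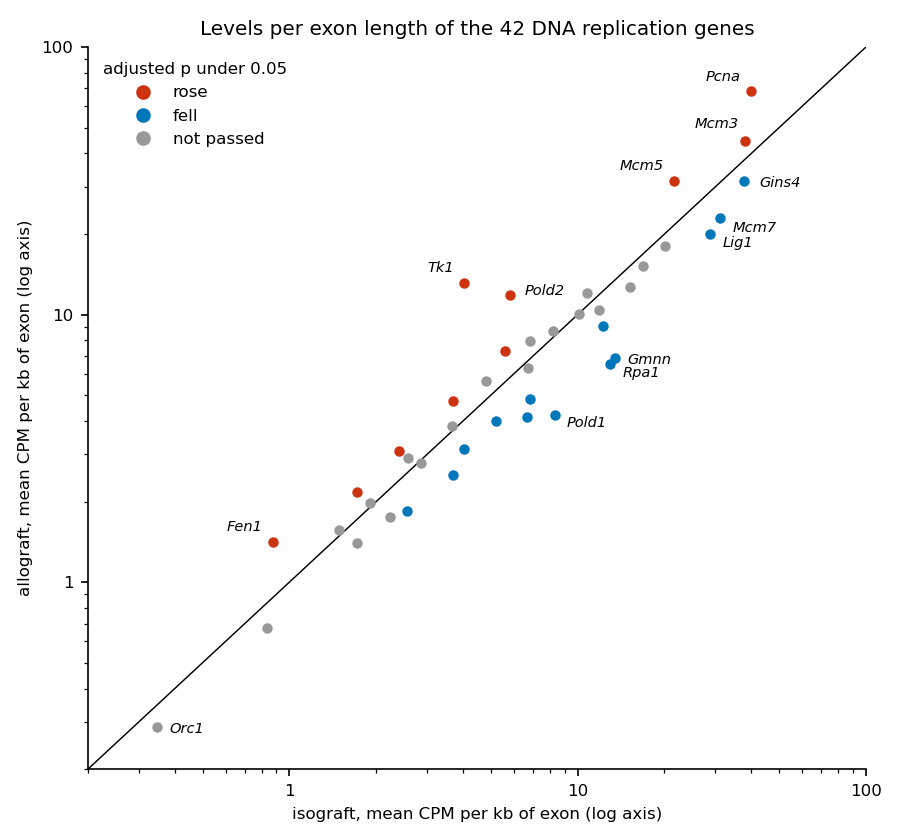
Mean level per kilobase of exon in isograft (horizontal) and allograft (vertical) libraries for the 42 genes, both on log axes, coloured by call. The line marks equal levels, with Tk1 and Pold2 above it, Pold1, Rpa1 and Gmnn below it, and Orc1 lowest in both groups.

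The role groups differed in summed level. Nucleotide supply went from 163 ± 5.27 to 209 ± 12.9 CPM, and the clamp and loader group from 247 ± 7.38 to 286 ± 5.98 CPM (SD, n = 3). Within them Tk1 went from 21.0 to 68.4 CPM and Pcna from 96.0 to 164 CPM, each a larger gain than that of its group's sum. Lower sums were found for polymerases, single-strand binding (from 109.5 ± 2.86 to 69.7 ± 1.65 CPM), lagging strand maturation (from 124 ± 15.4 to 87.7 ± 7.66) and chromatin assembly (from 40.6 ± 5.33 to 28.8 ± 0.546). Helicase activation went from 106 ± 2.26 to 99.9 ± 1.87 CPM, and licensing overlapped between the groups. With total counts the ratio of allograft to isograft became 1.10 for nucleotide supply, from 1.28, and 0.993 for clamp and loader, from 1.16.

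Median log2 fold changes of the role groups were -0.15 for licensing, 0.14 for helicase activation, -0.15 for polymerases, 0.16 for clamp and loader, -0.26 for single-strand binding, 0.08 for lagging strand maturation, -0.43 for chromatin assembly and 0.04 for nucleotide supply, against -0.01 over all genes. With total counts the positive ones turned negative, at -0.08, -0.07, -0.14 and -0.18 for helicase activation, clamp and loader, lagging strand maturation and nucleotide supply. The median for nucleotide supply also became -0.01 without allograft replicate 3. Groups of 2 to 11 genes give medians that a few members decide, and no difference between role groups was tested.

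**Figure D4:**
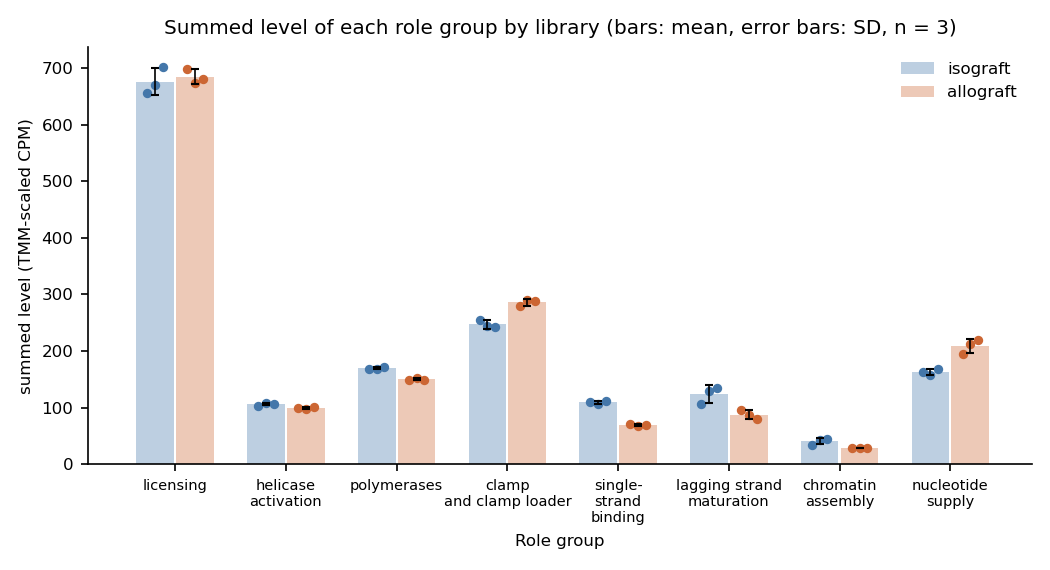
Summed level of each role group (TMM-scaled CPM, vertical axis from 0) in isograft and allograft libraries, bars for the mean, error bars for the SD (n = 3) and points for libraries. Licensing genes overlap between groups between 656 and 702 CPM, and nucleotide supply is higher in all 3 allograft libraries.

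Other genes of replication, from a list of 39 outside the 42, had 14 that rose and 13 that fell (35.9% and 33.3%), near the 28.7% and 29.1% of all genes, and a median log2 change of 0.03. The rises with the smallest p were Top1, the topoisomerase that relaxes DNA ahead of forks and transcription (1.03 ± 0.07, edgeR adjusted p = 1.6e-10), Orc2, a core origin subunit (1.03 ± 0.09, edgeR adjusted p = 4.2e-09), and Mtbp, an origin firing factor (0.98 ± 0.09, edgeR adjusted p = 2.5e-08). Exons of Nif3l1 cover 29.8% of those of Orc2. The falls with the smallest p were Clspn, the fork checkpoint adaptor claspin (-0.87 ± 0.09, edgeR adjusted p = 1.4e-07), Dnmt1, which copies DNA methylation onto new strands (-0.69 ± 0.09, edgeR adjusted p = 7.3e-06), and Cdc7, the kinase that fires licensed origins (-0.74 ± 0.11, edgeR adjusted p = 1.3e-05).

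Of 13 other nucleotide supply genes 4 rose and 5 fell (30.8% and 38.5%, beside 28.7% and 29.1% of all genes). At least 2-fold were 6 of these changes (46.2% of the list, beside 20.1% of all genes). Among them is Nme2, at 0.18 to 0.30 CPM in isograft and 1.06 to 1.17 CPM in allograft libraries. Exons of Gm20390 cover 48.9% of its exon bases, and it was named for its low level after its values were seen. Dctd, which makes dUMP from dCMP, rose by 2.49 ± 0.19 (edgeR adjusted p = 1.1e-09), Nme1, a nucleoside diphosphate kinase, by 2.29 ± 0.16 (edgeR adjusted p = 1.8e-10), and Dctpp1, which breaks down dCTP, by 1.74 ± 0.13 (edgeR adjusted p = 1.1e-09). Exons of Gm20390 cover 12.5% of those of Nme1. Other kinases of nucleoside salvage fell, Dck for deoxycytidine (-1.29 ± 0.12, edgeR adjusted p = 1.4e-08), and Dguok (-1.03 ± 0.12, edgeR adjusted p = 4.0e-07) and Tk2 (-0.87 ± 0.09, edgeR adjusted p = 1.1e-07) in mitochondria. So Tk1 rose while its mitochondrial counterpart Tk2 fell. Tyms, which makes thymidylate, did not pass (0.42 ± 0.19) and was added after its value was seen.

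Genes of G2 and mitosis, which act after replication, passed the threshold downward or not at all. Of 28 such genes 0 rose and 20 fell (71.4%, against 29.1% of all genes), and the median log2 change was -0.49. The count that rose was also 0 with DESeq2, and at an unadjusted edgeR p under 0.05, both on the same counts. The list was chosen with earlier results of these data known, so these counts are descriptions. The falls with the smallest p were Cenpa, the histone variant of centromeres (-1.33 ± 0.09, edgeR adjusted p = 3.2e-10), Ndc80, a kinetochore protein (-1.36 ± 0.11, edgeR adjusted p = 4.0e-09), and Kif23, a motor of cell division (-0.85 ± 0.10, edgeR adjusted p = 5.8e-07). Mki67, the proliferation marker Ki-67, did not pass (-0.08 ± 0.08, edgeR adjusted p = 0.39). Whether the replication genes and the mitosis genes differed from each other was not tested.

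**Figure D5:**
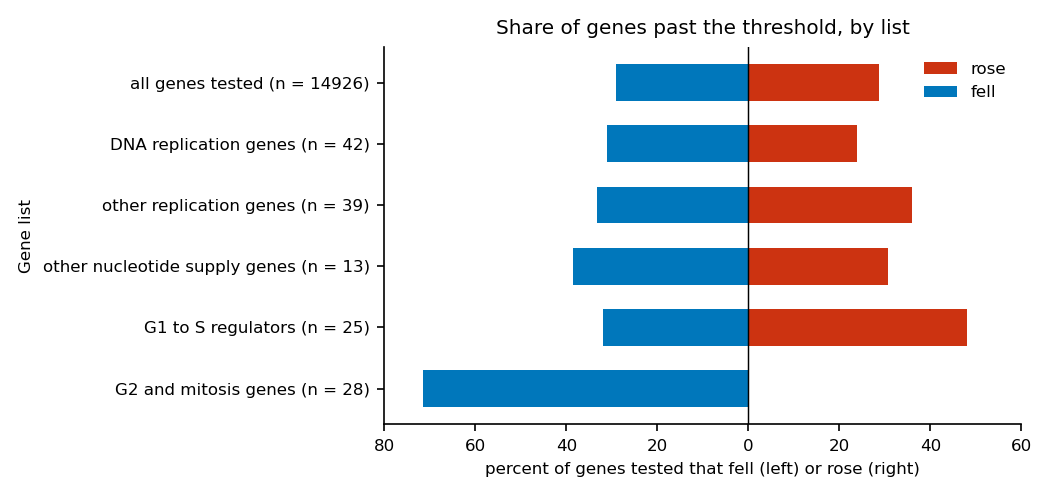
Percent of the genes tested that rose (to the right of 0) or fell (to the left), for all genes, the 42 DNA replication genes and 4 related lists. The replication genes lie near the background of 28.7% and 29.1%, and the G2 and mitosis list has falls only (71.4%). Members and lists were chosen with earlier results of these data known.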

How the data were processed

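Per the file headers, the authors counted paired fragments over exons, summed per gene, with featureCounts 1.6.0 and an Ensembl annotation of GRCm39, from a HISAT alignment. The deposited values are whole-number counts with no normalization. GRCm38 and mm10 are named in the submitters' processing notes, while gene coordinates here are the files' own (GRCm39). No strand, overlap or multi-mapping option is recorded, so by that tool's defaults antisense reads are not told apart, and fragments that meet exons of more than 1 gene or map to several places are left out. Of 55416 Ensembl IDs, 52083 had a symbol.

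Genes were kept by filterByExpr (14926, with 99.92% of counts), scaled by TMM and tested with edgeR 4.0.16 in R 4.3.3 (robust quasi-likelihood, Benjamini-Hochberg over all genes, threshold 0.05). The SE is the log2 fold change's size over the square root of F. DESeq2 1.42.0, RLE scaling, total counts, no filter, a replicate block and each library left out were alternatives. The procedure was tested on simulated counts. Replicates within a group differed by more than sampling noise (chi-square per degree of freedom 10.4 to 22.1). Libraries that share a number in their titles had correlations of deviations of -0.205, 0.045 and -0.073. Deviations from the mean of so few libraries constrain each other, so these values cannot decide whether libraries were paired. The labels do not say that the numbers pair mice.

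Members, role groups and lists were chosen with earlier results of these data known. In each role group the members with the highest and lowest log2 fold change, the 4 largest overall and all of nucleotide supply are given per library. In related lists the 3 rises and 3 falls with the smallest p are named, with Mki67 and the genes said above or below to be named or added after their values were seen. In the 5 remaining marker lists, sums in isograft and allograft libraries were 78.7 to 81.9 and 125 to 131 CPM for germinal centre B cells, 106 to 116 and 99.7 to 111 for plasma cells, 99.5 to 106 and 79.99 to 91.2 for myeloid cells, 49.0 to 56.0 and 215 to 252 for erythroid precursors (mostly Tfrc, at 42.7 to 248 CPM), and 57.5 to 61.1 and 76.9 to 81.8 for NK cells. Some single genes of these lists are not reported here.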

Additional observations from a re-analysis of the deposited data

How the results depend on the processing

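Of the 23 replication genes called, 16 kept direction and call in all 11 alternatives: Mcm5, Pold2, Pcna and Tk1 upward, and 12 of the 13 that fell, the exception being Rrm2. With total counts 4 rose (from 10) and 22 fell (from 13), and 2973 of all genes rose and 6093 fell (from 4283 and 4349). By construction this setting drops the TMM factors, which lowers allograft relative to isograft levels. RLE scaling gave 10 and 13, beside 29.1% and 28.8% of all genes, and DESeq2 10 and 13, beside 28.8% and 28.4%. No low-count filter gave 9 and 13, beside 15.3% and 16.5% of the 27217 genes then tested, a set that includes low-count genes. Leaving out each library gave 7 to 10 rises and 12 to 15 falls, beside 25.2% to 26.7% and 26% to 27.9% of all genes. No gene of the 42 reversed with a call under any of these. With the replicate number as a block 10 rose and 12 fell, and over all genes 4064 rose and 4152 fell. Rrm2 lost its call under the block (-0.35, adjusted p = 0.0504). Not every library correlated best with its own number. Orc1, Fen1, Cdc6 and Pole2 were under 8 CPM in every library, and how far depth limits their values was not tested.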

Other observations

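Regulators of the step from G1 to S also went both ways, with several changes larger than that of Tk1. Of 25 on a list, 12 rose and 8 fell (48% and 32%, against 28.7% and 29.1% of all genes). At least 2-fold were 9 of these changes (36% of the list, beside 20.1% of all genes). Myc, a transcription factor that drives growth and cell cycle entry, was at 41.5, 46.7 and 46.2 CPM in isograft and 458, 421 and 353 CPM in allograft libraries (3.20 ± 0.09, edgeR adjusted p = 5.4e-15). Ccnd2, the cyclin D2 gene, rose by 3.03 ± 0.08 (edgeR adjusted p = 6.4e-16), while Ccnd3, the gene of another D cyclin, fell (-1.35 ± 0.09, edgeR adjusted p = 1.4e-10). The kinase inhibitor genes also split, with Cdkn1a up (2.13 ± 0.12, edgeR adjusted p = 1.2e-11) and Cdkn1b down (-1.36 ± 0.08, edgeR adjusted p = 2.1e-11). Rbl2, a pocket protein that represses E2F targets in resting cells, fell (-1.54 ± 0.10, edgeR adjusted p = 5.2e-11), and exons of neighbours cover 21.0% of its own. The activating factor genes E2f1 (-0.25 ± 0.18) and E2f2 (-0.11 ± 0.14) did not pass, and E2f3 rose (0.85 ± 0.11, edgeR adjusted p = 2.6e-06). These E2f genes were named after their values were seen.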
